A study of Mus musculus with 209 samples.

Results

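Interleukin-1β (IL1b) and tumour necrosis factor (TNFa) were compared directly in Ly6C+ monocytes 2 h after injection into mice. All 6 libraries of this pair were used, 3 from mice given IL1b and 3 from mice given TNFa, out of 209 libraries in the series. The test covered every gene past a filter on low counts. The gene lists, the receptors and the injected cytokines were chosen beforehand, the lists with earlier results of these data known. The mice were C57BL/6J animals of 5 to 8 weeks. The IL1b group received 5 µg of IL1b in 120 µL of PBS by intravenous injection, the TNFa group received 5 µg of TNFa in the same volume, and the PBS group, used here for the resting level, received 120 µL of PBS and gave 5 libraries. A group given 5 µg of IL6 in the same volume, with 3 libraries, is not described here but entered the fit behind the p-values and the principal components. The labels name no transgene or deletion in these groups. Each library was made from 1000 cells sorted 2 times in succession and labelled Mo.6C+, the Immunological Genome Project name for Ly6C-high monocytes. The library titles mark the cells as splenic, whereas the tissue field gives the peritoneal cavity, and spleen was taken from the titles. It is not stated in the labels whether the libraries of a group came from separate mice, so p-values measure the spread between libraries. The cytokines were given to the whole animal, and direct and indirect action on monocytes cannot be told apart.

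Ly6C-high monocytes leave the bone marrow, circulate through blood and spleen, and can turn into inflammatory macrophages in tissue. IL1b binds the receptor IL1R1 together with its accessory chain IL1RAP and signals through MyD88 and IRAK kinases. TNFa binds TNFR1 (Tnfrsf1a) and TNFR2 (Tnfrsf1b) and signals through TRADD, TRAF2 and RIPK1. Both pathways meet at the IkB kinase complex, which frees NF-kB, and at the MAP kinases, so they are known for overlapping sets of inflammatory target genes.

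The monocyte markers were present in every library. The 10 markers summed to between 11700 and 15220 CPM (counts scaled to a common library size, with TMM factors) with IL1b, between 8622 and 15370 CPM with TNFa and between 11080 and 15220 CPM with PBS, and none of the 10 was at 0. Total counts ran between 4761900 and 6220807 with IL1b, between 5269813 and 6580791 with TNFa and between 4916914 and 6552334 with PBS. IL1b library 1 and, to a lesser degree, TNFa library 1 stood apart from the other libraries of their groups. On the second principal component, with 12.1% of the variance over the 14 screen monocyte libraries, IL1b library 1 lay at -12.9, against -64.1 and -63.4 for IL1b libraries 2 and 3, and TNFa library 1 at 13.7, against 39.8 and 43.6 for TNFa libraries 2 and 3. The 10 B cell markers summed to 77.9 CPM in TNFa library 1, against 25.8 and 27.3 CPM in TNFa libraries 2 and 3. Their sums ran between 34.6 and 96.6 CPM with IL1b and between 33.4 and 73.0 CPM with PBS. T cell markers went the other way, at 51.9 CPM in TNFa library 1, against 147.8 and 233.9 CPM in TNFa libraries 2 and 3. NK cell markers did so too, at 67.0 CPM, against 266.6 and 441.3 CPM. The 10 conventional dendritic cell markers summed to 1326 CPM in IL1b library 1, against 580 and 646.5 CPM in IL1b libraries 2 and 3, between 440 and 890 CPM with TNFa and between 386 and 697 CPM with PBS. Of the genes called between the cytokines, IL1b library 1 was the IL1b library nearest to TNFa for 534 of 909 higher genes (58.7%) and for 585 of 824 lower genes (71%).

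IL1b and TNFa left monocytes with different levels of many genes. Of 12573 genes tested, 1733 (13.8%) differed between IL1b and TNFa at an adjusted p under 0.05 (edgeR), 909 of them higher with IL1b (7.23%) and 824 lower with IL1b (6.55%), that is, higher with TNFa. The median log2 fold change, IL1b over TNFa, was 1.21 among the higher genes and -1.25 among the lower ones, against 0.02 over all genes tested. A test for a difference larger than 2-fold passed 255 genes (2.03%), 136 of them higher (1.08%) and 119 lower with IL1b (0.946%). Of the 1733 genes, 1627 showed no overlap between the 3 IL1b and the 3 TNFa libraries, as did 3457 of all 12573 genes tested. Against PBS, the same fit called 4656 genes with IL1b (37%) and 6125 with TNFa (48.7%), and both of these comparisons use the same 5 PBS libraries. The number of genes that differed was 1117 without IL1b library 3. The number lower with IL1b was 540 without IL1b library 2 and 484 without IL1b library 3. The number past 2-fold was 468 without IL1b library 1, 169 without IL1b library 2 and 150 without IL1b library 3.

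**Figure D1:**
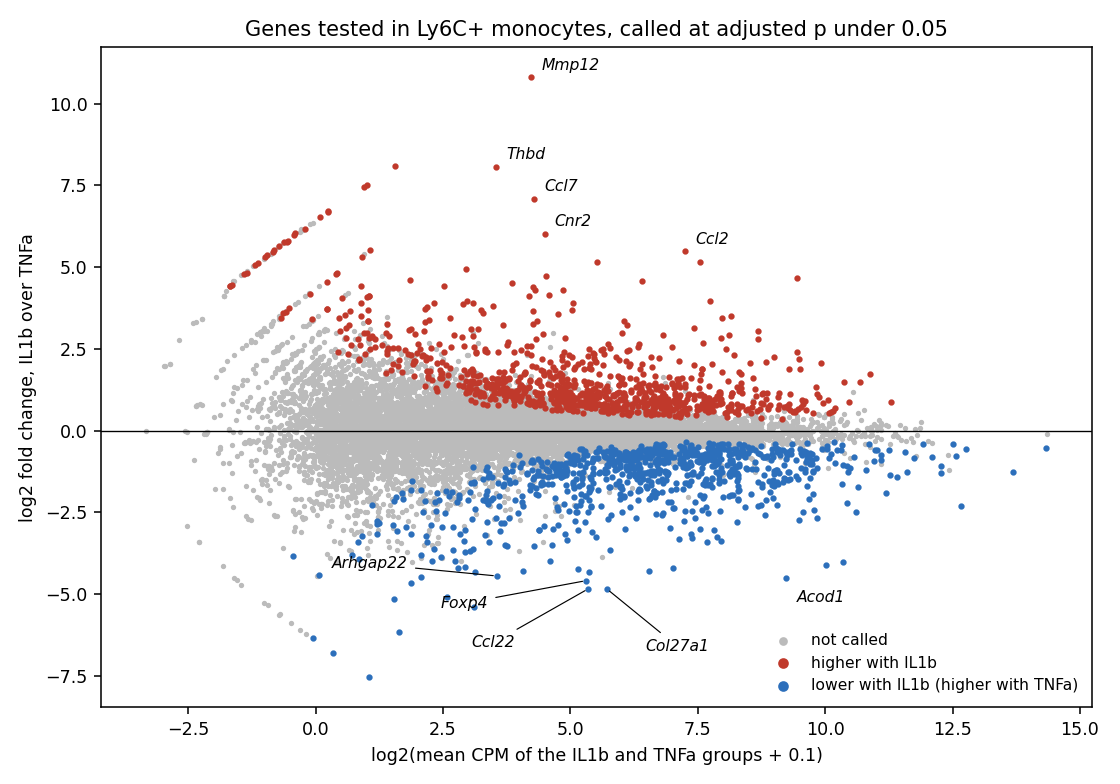
Log2 fold change of IL1b over TNFa (vertical axis) against log2 of the mean CPM of both groups plus 0.1 (horizontal axis) for the 12573 genes tested in Ly6C+ monocytes. Red points are the 909 genes higher with IL1b, blue points the 824 lower with IL1b, grey points were not called, and the labelled genes are the 5 with the largest change in each direction under the rule for named genes; the height of Mmp12, whose TNFa libraries held no count, depends on the prior count of the fit.

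The sequences before the start of 4 genes are shown because these genes are among the most changed in the 2 opposite directions. They come from RefSeq (GRCm38.p6), cover the 250 bases before the most upstream listed start, and read 5′ to 3′ on the plus strand, which is the strand of all 4 genes. Mmp12 (chr9:7344147-7344396) and Cnr2 (chr4:135894939-135895188) were higher with IL1b. Ccl22 (chr8:94745434-94745683) and Col27a1 (chr4:63215162-63215411) were lower with IL1b. Capitals mark matches, on either strand, to an NF-kB motif, GGG and CC separated by 5 bases.
Mmp12: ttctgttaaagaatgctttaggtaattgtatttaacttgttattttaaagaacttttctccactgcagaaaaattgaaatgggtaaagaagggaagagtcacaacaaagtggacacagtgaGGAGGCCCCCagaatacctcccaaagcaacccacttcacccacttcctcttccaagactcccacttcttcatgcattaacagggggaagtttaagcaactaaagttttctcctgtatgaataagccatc
Cnr2: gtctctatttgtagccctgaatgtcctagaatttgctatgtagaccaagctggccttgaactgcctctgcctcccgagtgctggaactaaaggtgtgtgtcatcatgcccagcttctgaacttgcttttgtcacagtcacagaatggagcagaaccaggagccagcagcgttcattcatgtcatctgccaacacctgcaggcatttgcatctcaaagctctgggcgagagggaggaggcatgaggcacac
Ccl22: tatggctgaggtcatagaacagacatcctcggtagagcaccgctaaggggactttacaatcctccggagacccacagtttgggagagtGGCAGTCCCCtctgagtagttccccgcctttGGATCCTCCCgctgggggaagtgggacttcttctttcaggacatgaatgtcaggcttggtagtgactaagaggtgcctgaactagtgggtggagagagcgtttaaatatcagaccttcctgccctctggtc
Col27a1: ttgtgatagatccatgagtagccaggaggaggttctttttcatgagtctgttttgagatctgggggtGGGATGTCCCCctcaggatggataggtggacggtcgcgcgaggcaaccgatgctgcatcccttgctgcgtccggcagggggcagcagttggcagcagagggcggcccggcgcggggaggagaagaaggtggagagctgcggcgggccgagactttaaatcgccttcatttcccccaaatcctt
Ccl22 held 2 separate matches, Col27a1 matches at 2 overlapping positions, Mmp12 1 and Cnr2 0. The motif is loose. Over 300-base windows, which add 50 bases after the start, it was present in 68% of the 902 promoters of genes higher with IL1b, in 64.8% of the 832 promoters of genes lower with IL1b and in 66.2% of the 11770 promoters of all genes tested, against 50.8% of all 32851 promoters in the table. Among the genes with the largest changes it was present in 5 of 10 promoters of higher genes and in 9 of 17 promoters of lower genes. The 10 promoters came from 7 of the 15 higher genes and the 17 from 14 of the 15 lower genes. Some genes had several listed starts, and Thbd, Ccl7 and Ccl2 had no promoter listed. A STAT motif, TTC and GAA separated by 3 bases, was present in 5.99% of the promoters of higher genes, 8.41% of those of lower genes, 7.02% of those of genes tested and 8.3% of all promoters. An interferon-response core, GAAA and a second GAAA separated by 2 bases, was present in 4.99%, 4.09%, 3.34% and 3.44% of the same 4 sets. Both strands were searched, and these are letter matches with no test and no measured binding.

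Ccl2, Ccl7 and Ccl12, chemokines that bind CCR2, were higher with IL1b. Ccl2, the main ligand of the monocyte receptor CCR2, stood at 93.9, 424 and 379 CPM in the IL1b libraries, against 4.79, 14.9 and 0 CPM in the TNFa libraries and 4.33 ± 1.16 CPM with PBS (SD, n = 5). Each IL1b library lay far above PBS, while the TNFa libraries lay on both sides of the PBS level. The log2 fold change was 5.48 ± 0.71 (SE; adjusted p = 7.7e-05). Ccl7, another CCR2 ligand, had 4.54, 63.1 and 48.5 CPM with IL1b, against 0.191, 0.572 and 0 CPM with TNFa, and no count in the 5 PBS libraries. Its log2 fold change was 7.09 ± 1.08 (adjusted p = 8.7e-04). Ccl12, a further ligand of this receptor in mice, had 7.71, 59.2 and 45.8 CPM with IL1b and 4.40, 1.14 and 0 CPM with TNFa, a log2 fold change of 4.31 ± 0.98 (adjusted p = 0.0108) that did not pass without IL1b library 2 (adjusted p = 0.0576) or in DESeq2 (adjusted p = 0.0657). The 3 genes are neighbours on the plus strand of chromosome 11 (GRCm38), with Ccl2 at 82035571-82037453, Ccl7 at 82045712-82047525 and Ccl12 at 82101845-82103400. In all 3, IL1b library 1 was the lowest IL1b library and still above every TNFa library. All 1883 bases of Ccl2 are shared with the predicted gene Gm17268 on the opposite strand, and whether the counting used strand is not given in the sources used here. Of 80 genes that the text names from those chosen by the rule, 37 share bases with another annotated gene. Vsir shares 25834 bases with Cdh23 on the opposite strand.

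Other chemokines were higher with TNFa. Ccl22, a ligand of CCR4 on T cells, had 5.44, 0 and 3.03 CPM with IL1b, against 65.9, 78.2 and 92.3 CPM with TNFa (log2 fold change -4.84 ± 0.66; adjusted p = 2.1e-04), and the 5 PBS libraries held 1 count of it in all. Cxcl2, which attracts neutrophils, had 40.8, 21.2 and 32.5 CPM with IL1b and 269, 334 and 312 CPM with TNFa (-3.28 ± 0.25; adjusted p = 1.8e-05), and no count with PBS. Cxcl2 was thus detected with both cytokines, with every TNFa library above every IL1b library. Cxcl16, the ligand of CXCR6, was lower with IL1b, with a log2 fold change of -2.35 ± 0.39 (adjusted p = 6.7e-04), as was Ccl9, a ligand of CCR1, with -1.19 ± 0.14 (adjusted p = 2.9e-05). In the chemokine list, 5 of 17 tested members were higher and 8 lower with IL1b, against 7.23% and 6.55% of all genes tested. The median log2 fold change in this list was -1.50, and the higher count was 3 without IL1b library 2.

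**Figure D2:**
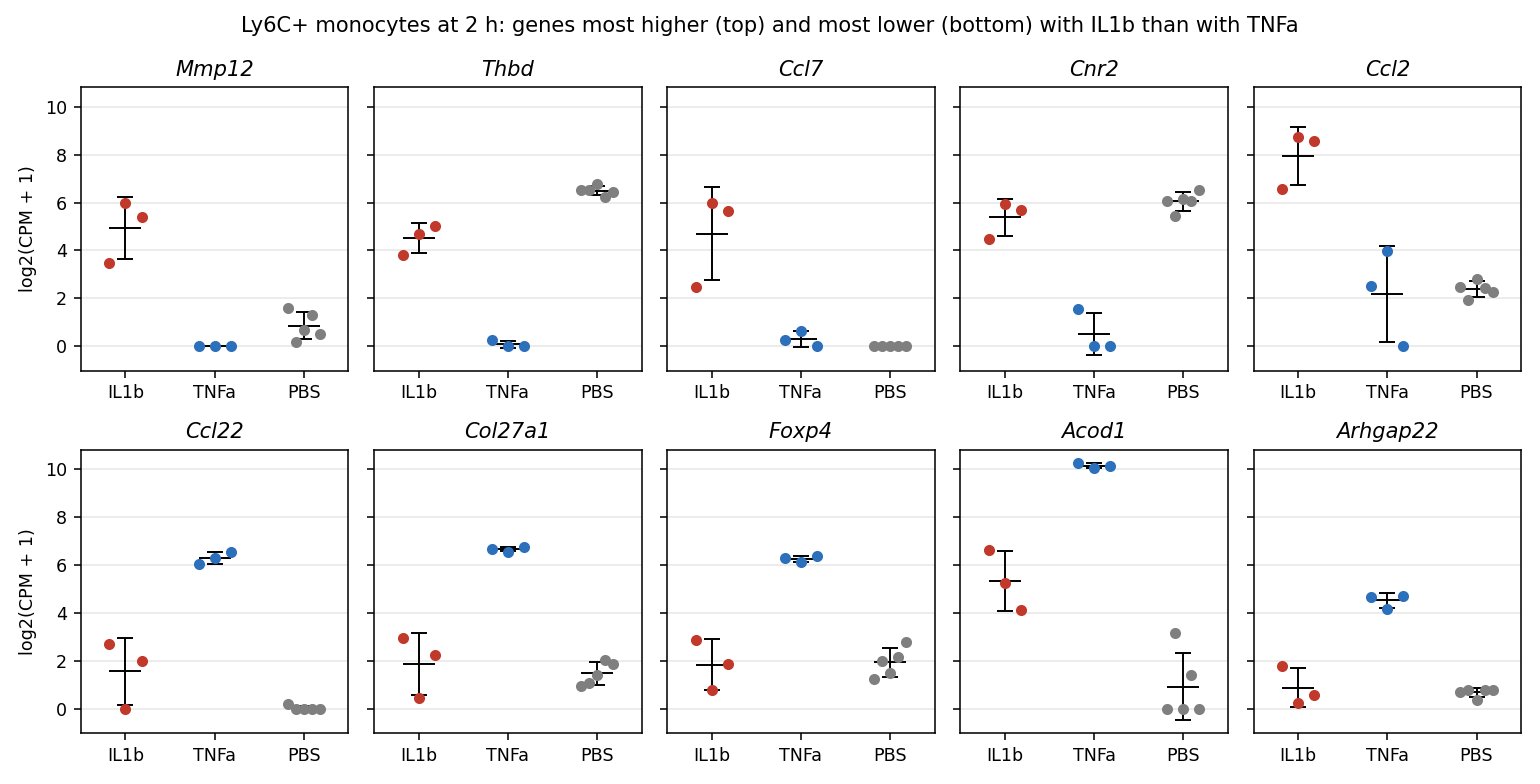
Level of 10 genes in each library, as log2(CPM + 1), for IL1b (red, 3 libraries), TNFa (blue, 3 libraries) and PBS (grey, 5 libraries); points are libraries and black marks give the mean and its SD. The upper row holds the 5 genes with the largest change among those higher with IL1b and the lower row the 5 among those lower; the rule that chose the 10 required the IL1b and TNFa libraries not to overlap.

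Several genes of resting monocytes stayed closer to PBS with IL1b and were far lower with TNFa. Thbd, which encodes thrombomodulin, the receptor that turns thrombin into an anticoagulant enzyme, had 13.2, 24.9 and 31.3 CPM with IL1b, against 0.191, 0 and 0 CPM with TNFa and 90.4 ± 12.2 CPM with PBS. That is 384 counts with IL1b and 1 with TNFa over 3 libraries each, a ratio of 412 with an exact 95% interval from 73.6 to 16300 that covers counting error only (log2 fold change 8.06 ± 0.66; adjusted p = 1.9e-06). The IL1b libraries were below PBS (log2 fold change -1.96; adjusted p = 4.4e-05) and above every TNFa library. Cnr2, the cannabinoid receptor of immune cells, stood at 21.5, 60.6 and 50.7 CPM with IL1b, against 1.91, 0 and 0 CPM with TNFa and 67.0 ± 17.2 CPM with PBS. Its log2 fold change between the cytokines was 6.02 ± 0.64 (adjusted p = 1.6e-05). Without TNFa library 1, the only TNFa library with Cnr2 counts, the fitted value was 11.06, which depends on the prior count of the fit. Against PBS, the IL1b change in Cnr2 did not pass (-0.59; adjusted p = 0.231), whereas the TNFa change was -6.62 (adjusted p = 2.6e-07). Tifab, an inhibitor of TRAF6 signalling, had 458.5, 858.5 and 869.8 CPM with IL1b, against 115, 77.8 and 73.9 CPM with TNFa and 732 ± 63.7 CPM with PBS (3.04 ± 0.23; adjusted p = 1.9e-06). Here the IL1b libraries lay on both sides of PBS and the TNFa libraries below all others.

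Genes of other roles also had TNFa levels far below both IL1b and PBS. Vsir, the checkpoint molecule VISTA, had 198, 522 and 659 CPM with IL1b, against 72.0, 22.3 and 33.4 CPM with TNFa and 683 ± 88.7 CPM with PBS (3.43 ± 0.41; adjusted p = 3.5e-05). Tlr8, an endosomal sensor of RNA, had 83.9, 108 and 153.5 CPM with IL1b, against 22.6, 9.35 and 11.4 CPM with TNFa and 118 ± 18.7 CPM with PBS (2.99 ± 0.30; adjusted p = 1.0e-05). For Vsir and Tlr8 the IL1b change from PBS did not pass (adjusted p = 0.194 and 0.927), and the TNFa changes were -4.00 and -3.03 (adjusted p = 5.3e-07 and 2.8e-07). Tnfsf14, the TNF family ligand LIGHT, had 15.4, 31.0 and 64.3 CPM with IL1b, against 4.02, 1.72 and 5.28 CPM with TNFa and 29.9 ± 6.20 CPM with PBS (3.35 ± 0.51; adjusted p = 3.3e-04). Abcg1, which exports cholesterol, Rasa3, a GTPase-activating protein for Ras and Rap, and Abcd2, a peroxisomal fatty acid transporter, were below PBS with both cytokines and further below it with TNFa. Abcg1 averaged 120 ± 38.9 CPM with IL1b, 11.8 ± 0.925 CPM with TNFa and 287 ± 67.6 CPM with PBS (3.35 ± 0.29; adjusted p = 2.5e-06). Rasa3 averaged 141 ± 33.4 CPM with IL1b, 22.4 ± 3.42 CPM with TNFa and 594.5 ± 28.0 CPM with PBS (2.65 ± 0.17; adjusted p = 4.6e-07). Abcd2 averaged 27.7 ± 12.6 CPM with IL1b, 1.16 ± 1.82 CPM with TNFa and 193.5 ± 30.5 CPM with PBS. Its log2 fold change was 4.52 ± 0.59 (adjusted p = 8.3e-05). Without TNFa library 1 it was 7.83, a value near the floor, as TNFa libraries 2 and 3 held 0 and 0.22 CPM.

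A further set was well above PBS with IL1b and much less so, or not, with TNFa. Mmp12, the macrophage elastase, had 10.2, 61.5 and 40.7 CPM with IL1b and no count in the TNFa libraries, so that it was at least 62.2-fold higher with IL1b, taking 3 counts per library as the floor (adjusted p = 6.7e-05). Its PBS level was 0.921 ± 0.768 CPM, and it shares 1261 bases with Mmp1b on the opposite strand. Thbs1, the matrix protein thrombospondin 1, stood at 168, 1491 and 2373 CPM with IL1b, against 38.5, 64.5 and 56.7 CPM with TNFa and 20.8 ± 5.00 CPM with PBS (4.66 ± 0.71; adjusted p = 3.4e-04). Its TNFa change from PBS did not pass (1.36; adjusted p = 0.0598). The endocytic adaptor gene Dab2 had 52.4, 473 and 559.8 CPM with IL1b, against 14.9, 8.58 and 6.60 CPM with TNFa and 2.21 ± 1.87 CPM with PBS (5.16 ± 0.75; adjusted p = 2.3e-04). C3ar1, the receptor of complement C3a, had 36.7, 236 and 215 CPM with IL1b, against 10.3, 5.72 and 4.40 CPM with TNFa and 4.30 ± 3.25 CPM with PBS (4.56 ± 0.68; adjusted p = 2.7e-04). In Mmp12, Thbs1, Dab2 and C3ar1, IL1b library 1 was the lowest IL1b library. Hbegf, a ligand of the EGF receptor, had 29.9, 69.7 and 65.0 CPM with IL1b, against 1.53, 1.53 and 5.50 CPM with TNFa and 0.380 ± 0.604 CPM with PBS (4.28 ± 0.67; adjusted p = 4.3e-04). It was above PBS with both cytokines, by log2 fold changes of 7.23 with IL1b and 2.95 with TNFa (adjusted p = 4.3e-07 and 0.00414).

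Several signalling genes were higher with IL1b as well. Cish, an inhibitor of STAT5 signalling, had 349.7, 251 and 327 CPM with IL1b, against 56.9, 28.2 and 19.8 CPM with TNFa and 1.41 ± 0.531 CPM with PBS (3.14 ± 0.34; adjusted p = 1.8e-05), so that both cytokines were above PBS. Tlr4, the receptor of lipopolysaccharide, had 62.8, 136.5 and 173.5 CPM with IL1b, against 10.3, 11.6 and 18.5 CPM with TNFa and 29.1 ± 5.87 CPM with PBS (3.21 ± 0.37; adjusted p = 2.9e-05). It lay above PBS with IL1b (log2 fold change 2.10; adjusted p = 3.7e-05) and below PBS with TNFa (-1.12; adjusted p = 0.011). Dusp6, a phosphatase of ERK, had 730.2, 1114 and 1105 CPM with IL1b, against 302, 289.7 and 208 CPM with TNFa and 483.5 ± 70.1 CPM with PBS (1.88 ± 0.19; adjusted p = 9.9e-06). Like Tlr4, it was on opposite sides of PBS, at 1.02 with IL1b and -0.86 with TNFa (adjusted p = 9.5e-05 and 4.7e-04). Xbp1, the transcription factor of the unfolded protein response, had 2165, 2699 and 2439 CPM with IL1b, against 1055, 803 and 749 CPM with TNFa and 743 ± 33.7 CPM with PBS (1.49 ± 0.22; adjusted p = 2.6e-04). Havcr2, the checkpoint receptor TIM-3, was higher by 2.07 ± 0.32 (adjusted p = 4.2e-04). For Xbp1 and Havcr2 the TNFa change from PBS did not pass (adjusted p = 0.354 and 0.47).

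Effector genes of activated myeloid cells were among the largest changes on the TNFa side. Acod1, the enzyme that makes itaconate, had 98.0, 36.9 and 16.7 CPM with IL1b, against 1242, 1063 and 1128 CPM with TNFa and 1.94 ± 3.50 CPM with PBS. Its log2 fold change was -4.52 ± 0.79 (adjusted p = 9.7e-04 with edgeR and 0.103 with DESeq2). Ptges, a prostaglandin E synthase, had 17.0, 13.4 and 10.1 CPM with IL1b, against 251, 338 and 147 CPM with TNFa and 3.83 ± 1.70 CPM with PBS (-4.19 ± 0.33; adjusted p = 1.9e-06). Saa3, an acute-phase protein of macrophages, had 119, 230.2 and 109.9 CPM with IL1b, against 2759, 2433 and 2225 CPM with TNFa and 1.98 ± 2.38 CPM with PBS (-4.01 ± 0.58; adjusted p = 2.3e-04). These 3 genes were above PBS with IL1b too, by log2 fold changes of 4.63 for Acod1, 1.82 for Ptges and 6.26 for Saa3 (adjusted p = 2.0e-04, 2.5e-04 and 5.9e-07). Marcksl1, a regulator of the actin cytoskeleton, had 165, 118 and 54.0 CPM with IL1b, against 1844, 2087 and 1937 CPM with TNFa and 10.4 ± 3.55 CPM with PBS (-4.13 ± 0.35; adjusted p = 2.4e-06). Mir155hg, the host gene of the microRNA miR-155, had 7.48, 2.14 and 1.52 CPM with IL1b and 64.1, 68.9 and 69.0 CPM with TNFa (-4.22 ± 0.49; adjusted p = 5.9e-05), with 1 count over the 5 PBS libraries. Its values are those of the host transcript as counted, not of the mature microRNA.

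Other leading genes on this side showed no called change from PBS with IL1b. Col27a1, a fibrillar collagen chain, had 6.80, 0.356 and 3.70 CPM with IL1b, against 102, 93.8 and 107 CPM with TNFa and 1.90 ± 0.960 CPM with PBS (-4.84 ± 0.57; adjusted p = 3.6e-05). The transcription factor gene Foxp4 had 6.35, 0.713 and 2.69 CPM with IL1b, against 78.5, 68.7 and 81.4 CPM with TNFa and 3.12 ± 1.81 CPM with PBS (-4.59 ± 0.57; adjusted p = 5.7e-05). Arhgap22, a GTPase-activating protein for Rac, had 2.495, 0.178 and 0.505 CPM with IL1b, against 24.7, 17.0 and 25.5 CPM with TNFa and 0.612 ± 0.1797 CPM with PBS (-4.45 ± 0.76; adjusted p = 8.1e-04). The IL1b change from PBS had an adjusted p of 0.234 for Col27a1, 0.994 for Foxp4 and 0.496 for Arhgap22.

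NF-kB targets and feedback genes had the largest share called in 1 direction among the 24 lists. In this list, 1 of 33 tested members were higher and 27 lower with IL1b, with a median log2 fold change of -1.64, against 6.55% lower and a median of 0.02 over all genes tested. With 1 IL1b or TNFa library left out the lower count was between 21 and 29. Tnfaip3, which encodes the deubiquitinase A20, a brake on NF-kB, had 498.5, 143 and 100.3 CPM with IL1b, against 1715, 1730 and 1321 CPM with TNFa and 66.3 ± 25.6 CPM with PBS (-2.69 ± 0.48; adjusted p = 0.00131). Sod2, the mitochondrial superoxide dismutase, had 1195, 893 and 850.5 CPM with IL1b, against 4124, 3639 and 3346 CPM with TNFa and 121 ± 10.1 CPM with PBS (-1.92 ± 0.15; adjusted p = 1.9e-06). Tnip1, a partner of A20, was lower, at a log2 fold change of -2.06 ± 0.29 (adjusted p = 1.7e-04). All 3 were above PBS with IL1b too, by log2 fold changes of 1.90 for Tnfaip3, 3.02 for Sod2 and 1.28 for Tnip1 (adjusted p = 0.00153, 2.8e-10 and 6.8e-04). The single member higher with IL1b was Bcl2l1, the gene of the survival protein BCL-XL, at 75.5, 177 and 221 CPM with IL1b, against 33.3, 39.7 and 26.8 CPM with TNFa and 27.5 ± 7.76 CPM with PBS (2.25 ± 0.36; adjusted p = 4.6e-04).

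Cell death genes went both ways. In the BCL2 and cell death list, 6 of 21 tested members were higher and 6 lower with IL1b, with a median log2 fold change of -0.37. Over all genes tested, 7.23% were higher and 6.55% lower. The higher count was 3 without IL1b library 2 or IL1b library 3, and the lower count was 3 without IL1b library 3. Cflar, which restrains caspase-8, was lower with IL1b, at a log2 fold change of -1.63 ± 0.27 (adjusted p = 6.6e-04), with 441.5, 174 and 178 CPM, against 955, 733 and 764 CPM with TNFa. The BCL2-related genes Bcl2a1b and Bcl2a1d were lower, at a log2 fold change of -1.99 ± 0.27 and -1.84 ± 0.22 (adjusted p = 1.1e-04 and 4.6e-05), but they are near-identical copies, Bcl2a1b shares 8449 bases with the predicted gene Gm29094 on the same strand, and how their reads were split is uncertain. On the other side, Bcl2l1 was higher with IL1b, as given above.

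**Figure D3:**
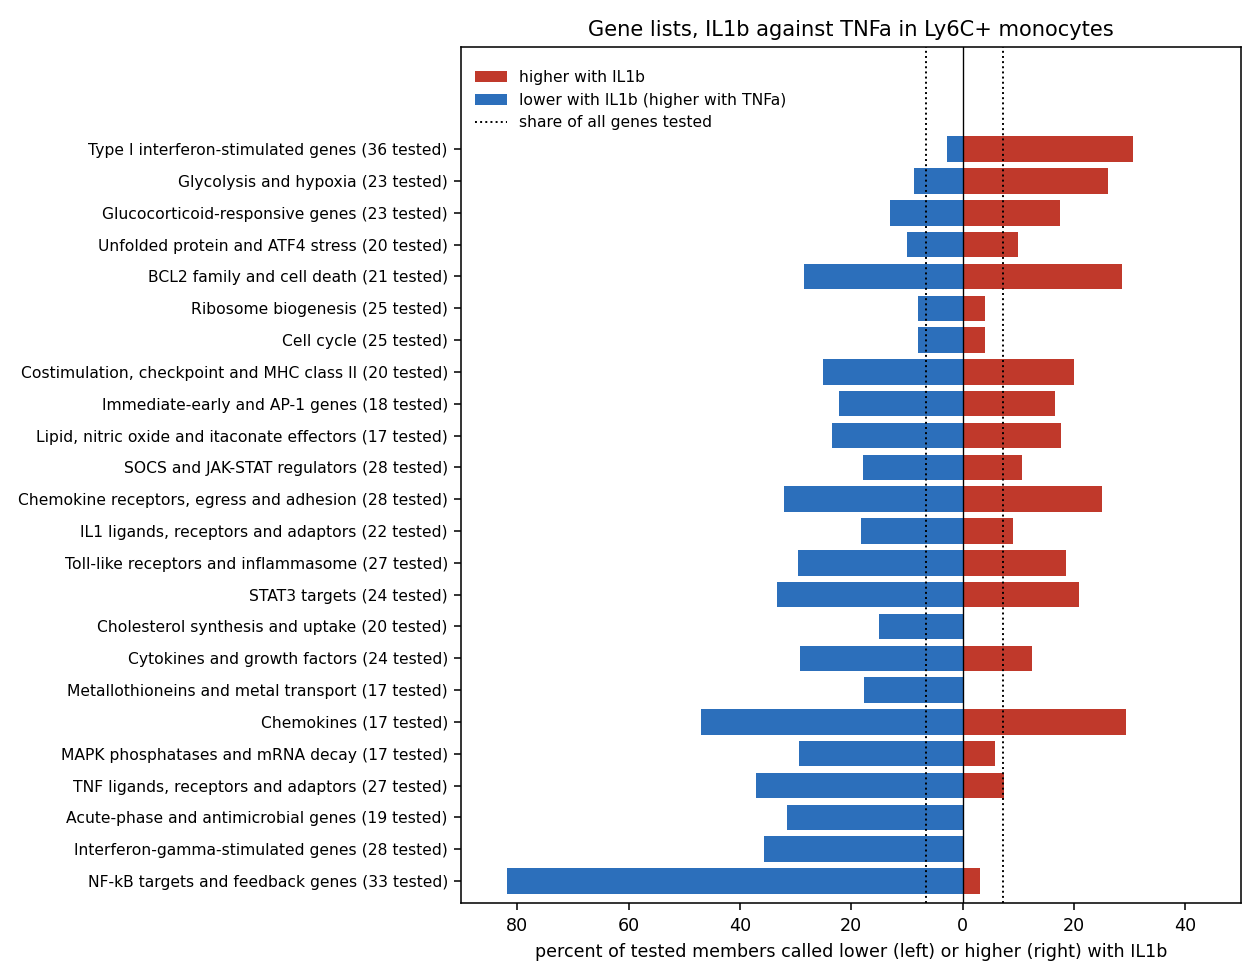
Share of tested members of each of 24 gene lists, in percent, that were called higher with IL1b (red, to the right) or lower with IL1b (blue, to the left), with dotted lines at the shares over all genes tested, 7.23% higher and 6.55% lower. The NF-kB list is at the bottom with 27 of 33 members lower, and the type I interferon list is at the top with 11 of 36 members higher.

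Among the receptors, Il1r1, the signalling IL1 receptor, was below the filter on low counts. The accessory chain gene Il1rap had 71.0, 142 and 163 CPM with IL1b, against 56.1, 36.2 and 45.7 CPM with TNFa and 24.7 ± 5.10 CPM with PBS (1.45 ± 0.32; adjusted p = 0.00592). The decoy receptor gene Il1r2 had 25.4, 240 and 244 CPM with IL1b, against 96.9, 50.2 and 38.0 CPM with TNFa and 6.82 ± 6.03 CPM with PBS. The groups overlapped through IL1b library 1, and the difference did not pass (1.46 ± 0.74; adjusted p = 0.221) but did without that library (1.97; adjusted p = 0.0443). Tnfrsf1b, the TNFR2 gene, was lower with IL1b at 1913, 1105 and 1076 CPM, against 3136, 2241 and 2412 CPM with TNFa and 1600 ± 199.9 CPM with PBS (-0.93 ± 0.20; adjusted p = 0.00495). Tnfrsf1a, the TNFR1 gene, had overlapping groups and a difference that did not pass (0.14 ± 0.16; adjusted p = 0.628) and was -0.04 without IL1b library 1.

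Among the ligands, Tnf itself had 80.3, 29.4 and 24.7 CPM with IL1b, against 472, 424 and 374 CPM with TNFa and 7.65 ± 4.75 CPM with PBS (-3.25 ± 0.49; adjusted p = 2.7e-04). Il1b had 2188, 721 and 714 CPM with IL1b, against 2914, 2072 and 2126 CPM with TNFa and 51.3 ± 17.9 CPM with PBS. IL1b library 1 overlapped the TNFa libraries, and the difference did not pass (-0.97 ± 0.40; adjusted p = 0.126) but did without that library (-1.72; adjusted p = 0.00211). Both ligand genes were above PBS with either cytokine. Il1rn, the receptor antagonist of IL1, had 1504, 1637 and 1309 CPM with IL1b, against 4081, 4093 and 3780 CPM with TNFa and 40.6 ± 4.99 CPM with PBS (-1.43 ± 0.15; adjusted p = 1.7e-05). Il27, a subunit of the cytokine IL-27, was lower with IL1b, at a log2 fold change of -2.80 ± 0.28 (adjusted p = 1.0e-05), and Tnfsf9, the ligand of 4-1BB, with -2.76 ± 0.39 (adjusted p = 1.6e-04). Il6 averaged 5.08 ± 1.91 CPM with IL1b and 13.6 ± 3.65 CPM with TNFa (SD, n = 3 each), a difference that did not pass (-1.42 ± 0.65; adjusted p = 0.179).

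By list, 2 higher and 4 lower of 22 IL1 system genes were called with IL1b, against 7.23% and 6.55% of all genes tested. The higher count was 1 without IL1b library 3, TNFa library 1, TNFa library 2 or TNFa library 3. The lower count was 7 without IL1b library 1. The IL1 pathway genes Peli1, an E3 ligase, and Irak2, a kinase, were among the lower ones, at log2 fold changes of -1.92 ± 0.20 and -1.56 ± 0.30 (adjusted p = 1.2e-05 and 0.00249). Of the TNF system genes, 2 higher and 10 lower of 27 were called. The higher count was 1 without IL1b library 2, TNFa library 1 or TNFa library 2. In the IL1 and TNF lists alike, 2 higher genes are near the share over all genes tested. Casp8, the initiator caspase downstream of TNFR1, was one of the 2 higher genes, at 220.4, 380.5 and 313 CPM with IL1b, against 189.5, 145 and 132 CPM with TNFa and 155 ± 13.4 CPM with PBS (0.97 ± 0.18; adjusted p = 0.00169). Of the cytokines and growth factors, 3 higher and 7 lower of 24 were called, and the higher count was 5 without TNFa library 1.

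The 2 interferon lists had opposite signs. In the type I interferon list, 11 of 36 tested members were higher and 1 lower with IL1b, with a median log2 fold change of 0.50. Over all genes tested, 7.23% were higher and 6.55% lower. In the interferon-gamma list, 0 of 28 tested members were higher and 10 lower with IL1b, with a median log2 fold change of -0.47. Irf7, the factor that amplifies type I interferon, had 533, 654.5 and 632.5 CPM with IL1b, against 384, 227 and 217 CPM with TNFa and 581 ± 75.0 CPM with PBS (1.14 ± 0.19; adjusted p = 8.4e-04). Dhx58, a helicase of RNA sensing, was higher by 1.15 ± 0.21, and Usp18, the ISG15 protease, by 0.87 ± 0.18 (adjusted p = 0.00135 and 0.00398). For Irf7, Dhx58 and Usp18 the IL1b change from PBS did not pass (adjusted p = 0.816, 0.813 and 0.0927), whereas TNFa was below PBS, with log2 fold changes of -1.08, -1.21 and -1.23 (adjusted p = 1.0e-04, 6.4e-05 and 1.5e-05). In the type I list, the higher count was 7 without IL1b library 2, 5 without IL1b library 3 or TNFa library 2, 4 without TNFa library 3 and the lower count was 2 without IL1b library 1, 0 without IL1b library 2, IL1b library 3, TNFa library 1 or TNFa library 2.

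On the interferon-gamma side, guanylate-binding protein genes, which act against intracellular pathogens, were lower with IL1b. Gbp2 had 161.5, 162.5 and 101 CPM with IL1b, against 599, 375 and 515 CPM with TNFa and 122 ± 27.9 CPM with PBS (-1.81 ± 0.25; adjusted p = 1.5e-04). Gbp5 had 80.3, 23.2 and 28.3 CPM with IL1b, against 272, 141.5 and 177 CPM with TNFa and 7.28 ± 1.66 CPM with PBS (-2.17 ± 0.37; adjusted p = 8.4e-04). Gbp3 was lower, at a log2 fold change of -1.50 ± 0.19 (adjusted p = 6.5e-05). The peptide transporter genes of antigen presentation, Tap1 and Tap2, were lower, at a log2 fold change of -0.86 ± 0.16 and -0.93 ± 0.14 (adjusted p = 0.00145 and 2.4e-04).

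Innate sensing genes were divided. In the Toll-like receptor and inflammasome list, 5 of 27 tested members were higher and 8 lower with IL1b. The shares over all genes tested were 7.23% and 6.55%. The median log2 fold change in this list was -0.42. The higher count was 3 without IL1b library 3, and the lower count was 5 without IL1b library 2 or IL1b library 3. Besides Tlr4 and Tlr8, the inflammasome adaptor gene Pycard was higher (1.42 ± 0.21; adjusted p = 3.1e-04). Cd14, the co-receptor of lipopolysaccharide, had 580.5, 718.5 and 589 CPM with IL1b, against 1483, 2159 and 2234 CPM with TNFa and 49.2 ± 7.82 CPM with PBS (-1.64 ± 0.23; adjusted p = 1.5e-04). Tlr4 and Cd14, whose products bind the same ligand, thus differed in opposite directions. Clec4e, the receptor Mincle, had 3077, 1942 and 1552 CPM with IL1b, against 11930, 11650 and 8713 CPM with TNFa and 126.5 ± 24.4 CPM with PBS (-2.30 ± 0.26; adjusted p = 2.5e-05).

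Costimulation genes were also divided. In this list, 4 of 20 tested members were higher and 5 lower with IL1b, against 7.23% and 6.55% of all genes tested. The median log2 fold change in this list was -0.44. The higher count was 2 without IL1b library 2 or TNFa library 3, and the lower count was 3 without IL1b library 2 or TNFa library 2. Cd40, a costimulatory receptor, had 413, 149 and 124 CPM with IL1b, against 1302, 1473 and 1071 CPM with TNFa and 73.6 ± 14.8 CPM with PBS (-2.49 ± 0.36; adjusted p = 2.1e-04). Cd83, a marker of dendritic cell maturation, had 479, 47.8 and 40.7 CPM with IL1b, against 1187, 1271 and 1271 CPM with TNFa and 21.7 ± 6.98 CPM with PBS (-2.72 ± 0.66; adjusted p = 0.0104). IL1b library 1 was far above the other IL1b libraries for Cd83, whose log2 fold change was -4.81 without it and whose test did not pass in a fit of the 6 libraries alone (adjusted p = 0.0736). The same library had the highest sum of conventional dendritic cell markers, given above, and the part of such cells in Cd83 and Cd40 was not tested.

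Migration and acute-phase genes completed the larger groups. In the chemokine receptor and adhesion list, 7 of 28 tested members were higher and 9 lower with IL1b. For this and the next lists, the shares over all genes tested were 7.23% higher and 6.55% lower. The median log2 fold change of the chemokine receptor and adhesion list was -0.31, and its lower count was 5 without IL1b library 2. Fpr1 and Fpr2, receptors of bacterial peptides, were lower with IL1b, at a log2 fold change of -2.04 ± 0.27 and -1.64 ± 0.24 (adjusted p = 1.1e-04 and 2.5e-04), and Fpr2 shares 6101 bases with Fpr3 on the same strand. Itgam, which encodes CD11b, was higher by 1.36 ± 0.22 (adjusted p = 5.9e-04), and shares 55809 bases with the predicted gene Gm49368 on the same strand. In the acute-phase and antimicrobial list, 0 of 19 tested members were higher and 6 lower with IL1b, with a median log2 fold change of -0.37. Besides Saa3, the protease inhibitor gene Slpi was lower, at a log2 fold change of -2.13 ± 0.41 (adjusted p = 0.00215). In the glycolysis and hypoxia list, 6 of 23 tested members were higher and 2 lower with IL1b, with a median log2 fold change of 0.42, and the higher count was 3 without IL1b library 3 or TNFa library 2 and the lower count was 1 without IL1b library 3 or TNFa library 2. Pfkfb3, an activator of glycolysis, was one of the lower genes (-2.37 ± 0.32; adjusted p = 1.0e-04) and the enolase gene Eno1 one of the higher (0.79 ± 0.16; adjusted p = 0.00352).

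The other lists gave smaller or mixed counts with IL1b, to be read against 7.23% higher and 6.55% lower over all genes tested. Called were 5 higher and 8 lower of 24 STAT3 targets, where the lower count was 4 without IL1b library 3. Of SOCS and JAK-STAT regulators, 3 higher and 5 lower of 28 were called, and the lower count was 3 without IL1b library 2, IL1b library 3 or TNFa library 1. Of MAPK phosphatase and mRNA decay genes, 1 higher and 5 lower of 17 were called, and the higher count was 2 without IL1b library 1 or TNFa library 3 and the lower count was 1 without IL1b library 2, IL1b library 3 or TNFa library 1, 2 without TNFa library 2. Dusp2, a nuclear MAPK phosphatase, was lower with IL1b at 63.5, 32.1 and 28.4 CPM, against 386.5, 272 and 342 CPM with TNFa and 3.23 ± 1.71 CPM with PBS (-3.02 ± 0.34; adjusted p = 2.3e-05), whereas Dusp6 was higher. Of lipid, nitric oxide and itaconate genes, 3 higher and 4 lower of 17 were called, and the lower count was 2 without IL1b library 2, IL1b library 3 or TNFa library 3. Of metallothionein and metal transport genes, 0 higher and 3 lower of 17 were called, and the higher count was 1 without TNFa library 2. Fth1, the ferritin heavy chain that stores iron, was lower with IL1b at 7114, 8387 and 7668 CPM, against 16720, 21480 and 18030 CPM with TNFa and 1574 ± 237 CPM with PBS (-1.28 ± 0.14; adjusted p = 2.0e-05). Of unfolded protein and ATF4 genes, 2 higher and 2 lower of 20 were called, Xbp1 among the higher ones.

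In the remaining lists the counts were small in each direction, to be read against 7.23% higher and 6.55% lower over all genes tested. Of glucocorticoid-responsive genes, 4 higher and 3 lower of 23 were called, and the higher count was 2 without IL1b library 2, IL1b library 3, TNFa library 1 or TNFa library 3, 1 without TNFa library 2. Tsc22d3, the glucocorticoid-induced leucine zipper, was higher by 1.53 ± 0.25 (adjusted p = 5.9e-04). Of immediate-early genes, 3 higher and 4 lower of 18 were called, and the higher count was 1 without IL1b library 2 or TNFa library 2 and the lower count was 2 without IL1b library 2, IL1b library 3 or TNFa library 1. Of cholesterol genes, 0 higher and 3 lower of 20 were called, and the lower count was 6 without IL1b library 1, 0 without IL1b library 2, IL1b library 3, TNFa library 2 or TNFa library 3, 1 without TNFa library 1. Of ribosome biogenesis genes, 1 higher and 2 lower of 25 were called, and the higher count was 5 without IL1b library 1, 2 without TNFa library 3 and the lower count was 0 without IL1b library 1, IL1b library 3, TNFa library 2 or TNFa library 3, 1 without IL1b library 2. The one higher was Heatr1, a factor of ribosomal RNA processing (1.74 ± 0.24; adjusted p = 1.4e-04). Of cell cycle genes, 1 higher and 2 lower of 25 were called, and the higher count was 2 without IL1b library 1 or TNFa library 1 and the lower count was 0 without IL1b library 2, 1 without IL1b library 3, TNFa library 2 or TNFa library 3.

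Lymphocyte markers were at low levels in all groups. The 10 T cell markers summed to between 7.74 and 29.0 CPM with IL1b, between 51.9 and 234 CPM with TNFa and between 12.2 and 65.9 CPM with PBS. The IL1b and TNFa sums did not overlap. None of the 10 was at 0 in a TNFa library, and between 1 and 3 were at 0 in the IL1b libraries. The 10 NK cell markers summed to between 10.6 and 93.9 CPM with IL1b, between 67.0 and 441 CPM with TNFa and between 18.4 and 117.5 CPM with PBS, so that the IL1b and TNFa sums overlapped, and none of the 9 tested passed. Beside these stand 3 genes known from lymphocytes. Lck, a T cell kinase, had 2.72, 1.96 and 1.68 CPM with IL1b, against 10.7, 17.2 and 46.2 CPM with TNFa and 12.0 ± 7.86 CPM with PBS (-3.54 ± 1.01; adjusted p = 0.0268). It did not pass without IL1b library 2, IL1b library 3 or TNFa library 3 (adjusted p = 0.0934, 0.106 and 0.108). Cd8a was the other T cell marker called (-3.11 ± 0.81; adjusted p = 0.0164; named after its values were seen). Il7r, a lymphocyte cytokine receptor, had 4.54, 5.70 and 1.85 CPM with IL1b, against 23.7, 39.9 and 72.6 CPM with TNFa and 2.27 ± 1.39 CPM with PBS (-3.49 ± 0.78; adjusted p = 0.00603). The part of other cells in Lck, Cd8a and Il7r was not tested, and in bulk libraries fewer cells of a type and less RNA per cell cannot be told apart. The red pulp macrophage markers summed to between 2820 and 4577 CPM with IL1b, between 5474 and 7911 CPM with TNFa and between 264 and 414 CPM with PBS. Most of that sum was Hmox1, with a mean of 3160 CPM with IL1b, 5577 CPM with TNFa and 186 CPM with PBS, and Spic, with 517 CPM with IL1b, 1223 CPM with TNFa and 56.9 CPM with PBS. The peritoneal macrophage markers summed to between 405 and 559 CPM with IL1b, between 2404 and 3082 CPM with TNFa and between 380 and 507 CPM with PBS. Saa3 carried the TNFa sum, and Gata6, Prg4 and Alox15, which define resident peritoneal macrophages, were below the filter on low counts.

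The direction of the differences was set beside separate libraries of a time course. There, Ly6C+ monocytes of the spleen (labelled Mo.6C) were collected 2 h after TNFa, and the PBS libraries used were from 24 h, with 2 libraries each in a fit of 10. No library is shared with the screen. TNFa and time after injection thus differ together in this contrast and cannot be told apart. Raised or lowered by TNFa, here and in later paragraphs, means TNFa at 2 h against PBS at 24 h. In this contrast 40.3% of the 12647 genes tested differed, 19.7% raised and 20.6% lowered, with a median log2 fold change of -0.10. Of the 824 genes lower with IL1b in the screen, 818 were tested in the time course, and TNFa raised 505 of them (61.7%) and lowered 55 (6.72%), with a median of 1.16. Of the 909 genes higher with IL1b, 894 were tested, and TNFa lowered 485 (54.3%) and raised 82 (9.17%), with a median of -1.02. The 505 genes were 20.2% of all genes TNFa raised there, and the 485 genes were 18.6% of all it lowered.

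**Figure D4:**
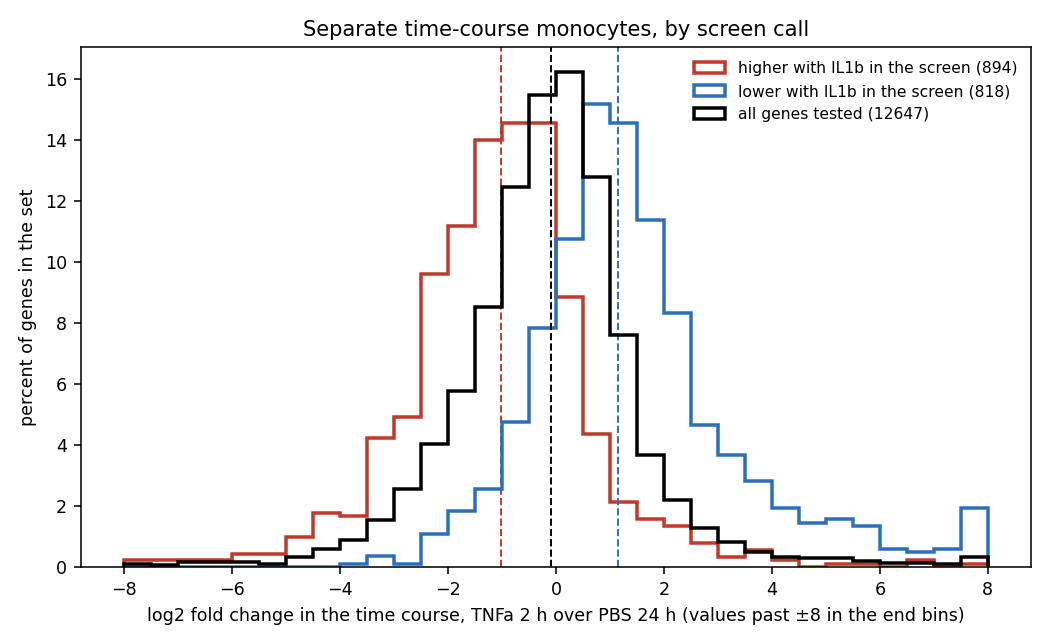
Log2 fold change of TNFa at 2 h over PBS at 24 h in time-course monocytes (horizontal axis), as percent of the genes in each set (vertical axis), for genes higher with IL1b in the screen (red, 894), genes lower with IL1b (blue, 818) and all genes tested (black, 12647). Dashed lines are medians, at -1.02 for the red, 1.16 for the blue and -0.10 for the black outline.

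Several single genes of both directions were low or high after TNFa in the time course too, and some others were not. Thbd had 0 and 0.395 CPM after TNFa, against 137 and 139 CPM with PBS (log2 fold change -9.14 ± 1.07; adjusted p = 4.7e-05). Cnr2 had 4.56 and 4.15 CPM after TNFa, against 86.4 and 83.3 CPM with PBS (-4.28 ± 0.39; adjusted p = 8.6e-06). Tifab and Vsir were also lowered, at log2 fold changes of -2.52 ± 0.20 and -3.09 ± 0.28 (adjusted p = 4.7e-06 and 9.7e-06). Ccl2 stood at 5.82 and 2.37 CPM after TNFa and 3.67 and 2.79 CPM with PBS, a difference that did not pass (adjusted p = 0.813). Acod1 had 762 and 1041 CPM after TNFa, against 2.38 and 0.199 CPM with PBS (9.38 ± 1.14; adjusted p = 6.3e-05), and Clec4e had 17330 and 9656 CPM, against 95.7 and 76.5 CPM (7.29 ± 0.71; adjusted p = 1.4e-05). Ccl22, at 10.1 and 14.0 CPM after TNFa and 0 and 0.398 CPM with PBS, was raised as well (5.82 ± 0.76; adjusted p = 1.1e-04). Thbs1, which was higher with IL1b in the screen, was raised by TNFa in the time course (3.64 ± 0.67; adjusted p = 0.00108), to 513 and 596 CPM, against 60.9 and 28.1 CPM with PBS. These levels lay above those of the screen TNFa libraries and within the range of the screen IL1b libraries. Havcr2 and Xbp1, whose screen TNFa changes from PBS did not pass, were raised in the time course (1.78 ± 0.35 and 0.71 ± 0.20, adjusted p = 0.00187 and 0.0121). Irf7, below PBS with TNFa in the screen, did not pass in the time course (-0.56 ± 0.23, adjusted p = 0.066). Dhx58 and Usp18 were lowered there too (-0.74 and -2.10, adjusted p = 0.0298 and 5.8e-04). Hbegf and Peli1 were above PBS with TNFa in the screen, by 2.95 and 1.78. Their time-course changes did not pass (-0.06 and -0.50, adjusted p = 0.97 and 0.109).

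The contrast was then set against the same contrast in neutrophils (GN, titled as splenic) and in peritoneal macrophages (MFpc), each with 3 IL1b and 3 TNFa libraries at 2 h. IL1b against TNFa called 3291 genes in GN (23.6%), with 15.7% higher and 7.9% lower with IL1b, and 1027 in MFpc (7.55%), with 3.08% higher and 4.47% lower. A test of the difference between the contrasts called 1225 of 13928 genes between monocytes and GN (8.8%) and 556 of 13598 between monocytes and MFpc (4.09%). The log2 fold change was higher in monocytes than in GN for 2.92% of genes and lower for 5.87%, and higher than in MFpc for 2.42% and lower for 1.67%. The MFpc count was 938 without monocyte IL1b library 1, 369 without monocyte IL1b library 2, 366 without monocyte IL1b library 3 and 346 without MFpc TNFa library 2. Among the 30 genes with the largest changes in monocytes, 15 per direction, the contrast differed from GN in 10 and from MFpc in 14. These genes were chosen by the monocyte contrast, which is also 1 term of this test, so the choice favours such differences. Single values are given for the first 5 of each direction. Thbd was higher with IL1b in all 3 cell types. It had 13.2 ± 5.71 CPM with IL1b and 2.33 ± 1.85 CPM with TNFa in GN (SD, n = 3 each), and 63.0 ± 7.59 CPM with IL1b and 7.91 ± 3.98 CPM with TNFa in MFpc. Its log2 fold change was larger in monocytes, by 5.41 ± 1.07 than in GN and by 5.08 ± 0.97 than in MFpc (adjusted p = 0.00123 and 0.00206).

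Cnr2 and Col27a1 differed from GN. Cnr2 had 168 ± 59.97 CPM with IL1b and 144 ± 32.6 CPM with TNFa in GN, and its log2 fold change was larger in monocytes by 5.78 ± 0.69 (adjusted p = 2.8e-06). Col27a1 had 1.47 ± 0.789 CPM with IL1b and 1.43 ± 0.438 CPM with TNFa in GN, with a difference, monocytes minus GN, of -4.88 ± 1.05 (adjusted p = 0.00292). In MFpc, Col27a1 was lower with IL1b too, at 17.2 ± 7.68 CPM, against 110.4 ± 11.9 CPM with TNFa, and the difference from monocytes did not pass (-2.16 ± 0.66; adjusted p = 0.0621) except without monocyte IL1b library 1 or MFpc IL1b library 2 (adjusted p = 0.00839 and 0.0447). Foxp4 was lower with IL1b in GN (-5.26 ± 0.90; adjusted p = 6.2e-05) and in MFpc (-2.10 ± 0.46; adjusted p = 0.00386). Its difference from MFpc was -2.49 ± 0.68 (adjusted p = 0.0348) and did not pass without monocyte IL1b library 2 or 3, monocyte TNFa library 3, MFpc IL1b library 1 or 3, or MFpc TNFa library 1 or 2 (adjusted p between 0.0575 and 0.111).

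Acod1, Ccl7 and Ccl2 had the same direction as in monocytes wherever they were called. Acod1 was lower with IL1b in GN, at 1172 ± 235.5 CPM, against 5386 ± 533 CPM with TNFa, and in MFpc, at 101 ± 48.7 CPM, against 1512 ± 53.5 CPM with TNFa. The difference from monocytes was -2.32 ± 0.83 for GN and -0.60 ± 0.87 for MFpc, and neither passed (adjusted p = 0.084 and 0.807), although the GN one did without monocyte IL1b library 1 (-3.24; adjusted p = 0.0134). Ccl7 and Ccl2 were higher with IL1b in MFpc, by 3.94 ± 0.76 and 2.55 ± 0.78 (adjusted p = 0.0015 and 0.0424). Their differences from monocytes were 3.16 ± 1.35 and 2.93 ± 1.13 and did not pass (adjusted p = 0.23 and 0.167), although the Ccl7 one did without monocyte IL1b library 1 (adjusted p = 0.0399). Without the filter on low counts, the differences of Acod1 from GN and of Ccl7, Ccl2 and Col27a1 from MFpc passed (adjusted p = 1.2e-18, 0.00623, 6.9e-15 and 1.7e-05). The differences themselves hardly moved, at -2.38, 3.15, 2.92 and -2.18. What in the fit gave the smaller p-values was not tested. In GN, Ccl2 had no count with IL1b and a mean of 0.479 CPM with TNFa, and its difference from monocytes did not pass (adjusted p = 0.0653) but did without the filter (adjusted p = 1.7e-06) and without monocyte IL1b library 1 or monocyte TNFa library 2 or 3 (adjusted p = 0.0428, 0.0245 and 0.0287).

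**Figure D5:**
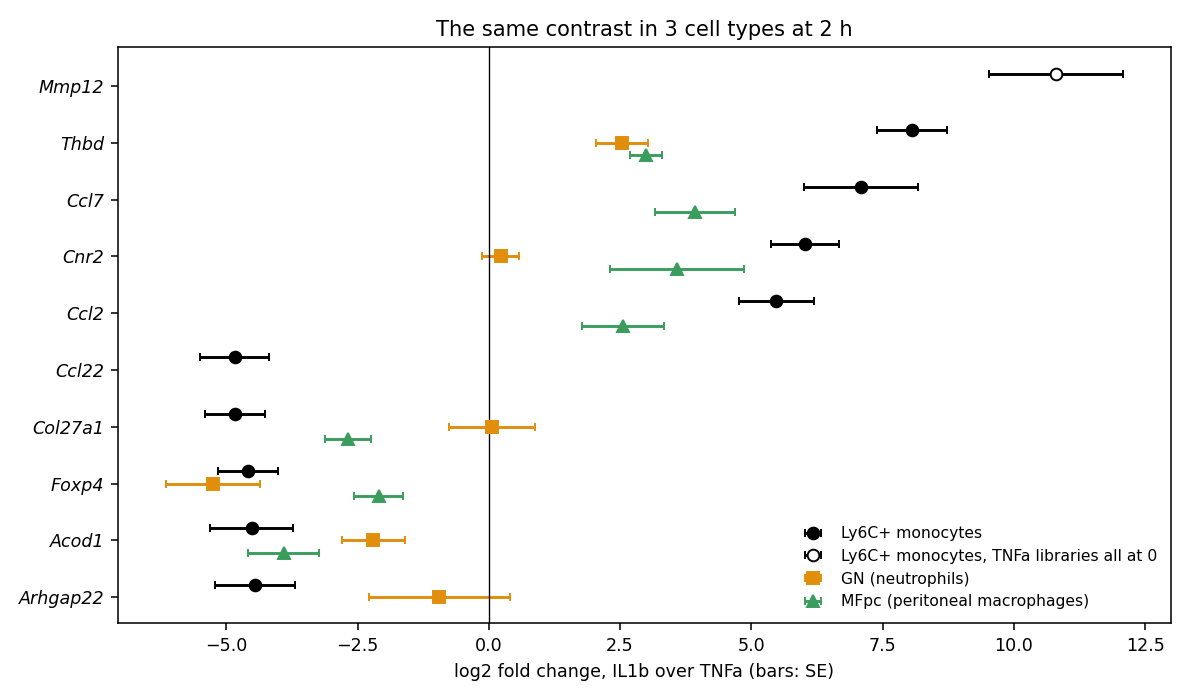
Log2 fold change of IL1b over TNFa (horizontal axis, bars are SE) for 10 genes in Ly6C+ monocytes (black circles), GN (orange squares) and MFpc (green triangles), with 3 libraries per cytokine and cell type. The open circle marks Mmp12, whose monocyte TNFa libraries held no count; GN has 6 and MFpc 7 of the 10 genes drawn, those above 0 in both groups and at 1 CPM or more in either.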

How the data were processed

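The deposited table holds raw counts per gene, with 55011 symbols and 209 libraries. Per the labels' protocols, 1000 cells per library were sorted and sequenced by the ultra-low-input protocol of the Immunological Genome Project. Per the submitters' processing notes, STAR 2.7.3a, featureCounts and mm10 were used. How strand and multimapped reads were treated, and the annotation, is not given in the sources used here.

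All 14 screen monocyte libraries (IL1b 3, IL6 3, TNFa 3, PBS 5) entered 1 edgeR 4.0.16 quasi-likelihood fit (R 4.3.3) with filterByExpr, TMM factors and Benjamini-Hochberg adjustment over all genes tested, at 0.05. SE is the absolute log2 fold change over the root of F. Differences past 2-fold used glmTreat. Replicate pairs differed by a chi-square of 6.82 to 27.2 per degree of freedom, so no library was counted as a duplicate. DESeq2 1.42.0 was an alternative. The test was checked on simulated data.

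The members and lists were chosen with earlier results of these data known. The text names, per direction, from the 15 largest changes (at least 20 CPM, no overlap between groups), the 5 smallest p-values, up to 5 called members per list, and the receptors and injected cytokines. Positions and gene overlaps come from GENCODE vM21 (GRCm38). Low depth limits genes near 0, where intervals cover counting error only.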

Additional observations from a re-analysis of the deposited data

Results flagged for a closer look

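Of the 10 genes with the largest changes between IL1b and TNFa, 5 per direction, the contrast of 6 differed from GN, MFpc or both. Over all genes tested, the contrast differed from GN for 8.8% and from MFpc for 4.09%. The difference itself was tested (edgeR), and values are log2, monocytes minus the other cell type. The 10 genes were chosen by their monocyte contrast, a term of the same test, so the choice favours such differences. Against GN, Thbd differed by 5.41 (adjusted p = 0.00123), Cnr2 by 5.78 (adjusted p = 2.8e-06) and Col27a1 by -4.88 (adjusted p = 0.00292). Against MFpc, Thbd differed by 5.08 (adjusted p = 0.00206). Foxp4 differed from MFpc by -2.49 (adjusted p = 0.0348) and lost the call without any 1 of 7 libraries (adjusted p between 0.0575 and 0.111).

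A gene with no count in some group has a fitted difference that depends on the prior count of the fit and is no bound. Mmp12 differed from GN by 14.02 (adjusted p = 0.00194, and 1 without GN TNFa library 2) and from MFpc by 13.16 (adjusted p = 0.00198, and 0.349 without MFpc TNFa library 1). Its levels in those cells were 0.1797 ± 0.311 CPM with IL1b and 0.982 ± 1.53 CPM with TNFa in MFpc, and 0 CPM with IL1b and 0.259 ± 0.449 CPM with TNFa in GN. Ccl22 differed from GN by -10.97 (adjusted p = 0.00308, and 0.233 without GN IL1b library 3), at 1.501 ± 2.37 CPM with IL1b and 0 CPM with TNFa in GN.

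Among 47 genes whose PBS values are given, 5 had 1 of the 5 PBS libraries apart from the other 4. The rule was a gap to the nearest library above 0.71 of the range. For normally distributed values chance marks about 1 in 20, which need not hold for counts near 0, such as those of Hbegf and Arhgap22. Hbegf had 1.46 CPM in PBS library 4, against 0 to 0.152 CPM in the others. Acod1 had 8.08 CPM in PBS library 2, against 0 to 1.64 CPM, and Saa3 had 6.09 CPM in PBS library 1, against 0.425 to 1.96 CPM. Arhgap22 had 0.301 CPM in PBS library 3, against 0.609 to 0.727 CPM, and Clec4e had 83.9 CPM in PBS library 5, against 130.2 to 145 CPM.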

How the results depend on the processing

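No value past the threshold changed sign under any alternative run, and among the other genes described Tnfrsf1a did (0.14, and -0.04 without IL1b library 1). With 1 library left out, the number of genes that differed between IL1b and TNFa ranged from 1117 to 1962, those higher with IL1b from 633 to 991, those lower from 484 to 971 and those past 2-fold from 150 to 468. The same alternatives gave 3781 to 4759 genes for IL1b against PBS, 5426 to 6223 for TNFa against PBS, 397 to 491 genes lower with IL1b that TNFa raised in the time course, 383 to 465 genes higher with IL1b that TNFa lowered there, 956 to 1324 differences from GN and 346 to 938 from MFpc. Without the filter on low counts, 443 genes passed 2-fold. A fit of only the 6 libraries called 1092 genes, 516 of them higher. DESeq2 called 2132 genes. Other changes of normalization and filter kept every count of this paragraph within 1.5 times. With upper-quartile factors, some cholesterol and ribosome biogenesis genes lost their calls as lower with IL1b (adjusted p between 0.0504 and 0.06).

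Deviations of same-numbered IL1b and TNFa libraries correlated at -0.0538, 0.0102 and -0.0339. Those of IL1b and IL6 correlated at 0.203, 0.0664 and 0.0682, and those of TNFa and IL6 at -0.144, -0.0365 and -0.0658. On the second principal component, library 1 was also apart with IL6 (2.37, against -25.7 and -24.8) and PBS (4.52, against 16.9 to 27.1). Whether equal numbers mark pairs or a batch cannot be decided from so few libraries, and no label states it. With the replicate number as a block, the 14 libraries gave 1346 genes. The block in a fit of the 6 libraries gave 885 genes, 383 higher and 502 lower, with 130 past 2-fold. Of the values of single genes under the alternatives, 2859 kept their side of the threshold, 148 lost a call and 5 gained one, for Il1r2 and Il1b. Depth limits genes near 0 CPM, and 3 libraries per cytokine, of which IL1b library 1 and TNFa library 1 stand apart from their groups, limit the counts.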
